A study of Mus musculus with 4 samples.

Results

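The Ighv1 family, also called J558, is the largest family of heavy chain variable (V) segments in the mouse. Its use was followed in 4 RNA libraries of splenic B cells from immunised control mice. The members were all rows annotated as an immunoglobulin V gene or V pseudogene whose symbol begins with Ighv1-, which gave 85 of the 160 heavy V rows and of 37646 rows in all. Of the 85, 53 were annotated as genes and 32 as pseudogenes. All libraries came from C57BL/6 mice of genotype YFPstopF/+Cg1Cre/+, in which Cre made from the Ighg1 locus removes a stop cassette and switches on YFP. Sheep red blood cells were given 2 times, with 20 days between injections, and the spleen was collected 10 days after the last one. Live B220+YFP+ cells, labelled germinal centre B cells, were sorted. YFP remains on in the progeny of a cell in which Cre was once active, so memory and plasma cells can carry it. There was 1 group, no label ties a library to an animal of its own, and p-values measure only the spread between these samples, part of which may be technical. Ages were not given.

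A heavy chain V segment is joined to a D and a J segment by the RAG recombinase in a bone marrow precursor, and each mature B cell transcribes mainly the 1 rearrangement that passed selection. The V exon encodes most of the antigen-binding part of the heavy chain. In the germinal centre, cells with a given rearrangement multiply, their V exons acquire point mutations, and a few clones can come to supply much of the V RNA. A V segment count therefore reflects how many cells use the segment and how much RNA each makes, and in bulk RNA these cannot be told apart.

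The germline sequences show how alike the members are, and hence which reads of 50 nt can be told apart. The segments printed are those with the highest count among Ighv1 segments in each library, Ighv1-72, which is the V186.2 segment known from the response of C57BL/6 mice to the hapten NP, and Ighv1-14, the pseudogene with the highest mean level, whose sequence was added after its values were seen. Each is the V part of the last exon, without the leader codons, 5′ to 3′, from the GENCODE M21 transcripts (GRCm38, minus strand of chromosome 12). Capitals mark bases that differ from Ighv1-72.
Ighv1-72 (chr12:115757984-115758277): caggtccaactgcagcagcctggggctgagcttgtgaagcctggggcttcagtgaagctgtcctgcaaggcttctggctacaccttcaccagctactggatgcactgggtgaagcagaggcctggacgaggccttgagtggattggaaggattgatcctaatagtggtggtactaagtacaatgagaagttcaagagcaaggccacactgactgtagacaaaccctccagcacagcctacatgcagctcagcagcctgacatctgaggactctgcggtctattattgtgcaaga
Ighv1-84 (chr12:115980702-115980995): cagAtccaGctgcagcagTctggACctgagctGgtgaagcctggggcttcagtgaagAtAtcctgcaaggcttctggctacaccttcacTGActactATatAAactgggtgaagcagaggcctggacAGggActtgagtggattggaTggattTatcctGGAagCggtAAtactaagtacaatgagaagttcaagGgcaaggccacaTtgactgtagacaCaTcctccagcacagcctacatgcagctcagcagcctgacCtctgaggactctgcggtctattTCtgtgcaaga
Ighv1-9 (chr12:114583569-114583862): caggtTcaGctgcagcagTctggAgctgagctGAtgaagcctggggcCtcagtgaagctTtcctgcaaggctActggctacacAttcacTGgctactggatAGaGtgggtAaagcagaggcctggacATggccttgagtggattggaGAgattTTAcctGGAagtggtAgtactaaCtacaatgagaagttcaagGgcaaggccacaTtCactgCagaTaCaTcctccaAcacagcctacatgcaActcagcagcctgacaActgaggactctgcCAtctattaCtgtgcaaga
Ighv1-7 (chr12:114538495-114538788): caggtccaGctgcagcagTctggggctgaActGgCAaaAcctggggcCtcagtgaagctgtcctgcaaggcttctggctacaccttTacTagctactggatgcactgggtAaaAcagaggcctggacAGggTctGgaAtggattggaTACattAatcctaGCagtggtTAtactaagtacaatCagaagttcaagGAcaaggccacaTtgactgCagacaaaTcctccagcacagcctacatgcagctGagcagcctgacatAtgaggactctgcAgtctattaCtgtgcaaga
Ighv1-39 (chr12:114914599-114914892): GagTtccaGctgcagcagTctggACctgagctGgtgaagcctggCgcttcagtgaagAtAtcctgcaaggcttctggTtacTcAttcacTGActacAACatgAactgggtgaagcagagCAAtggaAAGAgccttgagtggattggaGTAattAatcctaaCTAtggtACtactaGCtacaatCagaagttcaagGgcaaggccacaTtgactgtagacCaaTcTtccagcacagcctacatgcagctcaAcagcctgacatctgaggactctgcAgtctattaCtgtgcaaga
Ighv1-14 (chr12:114646572-114646865): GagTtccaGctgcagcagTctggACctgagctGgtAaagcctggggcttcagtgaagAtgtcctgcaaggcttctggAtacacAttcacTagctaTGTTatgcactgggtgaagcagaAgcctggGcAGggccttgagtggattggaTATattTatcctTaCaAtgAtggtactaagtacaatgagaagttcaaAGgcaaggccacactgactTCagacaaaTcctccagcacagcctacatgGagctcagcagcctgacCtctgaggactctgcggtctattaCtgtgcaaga

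Each printed stretch was 294 bases long and lies in the exon that holds most of the V region. In the files Ighv1-72 is ENSMUSG00000096074.2, Ighv1-84 ENSMUSG00000094940.1, Ighv1-9 ENSMUSG00000094694.6, Ighv1-7 ENSMUSG00000095200.2, Ighv1-39 ENSMUSG00000095130.1 and Ighv1-14 ENSMUSG00000104422.1. Ighv1-84 differed from Ighv1-72 at 33 bases, Ighv1-7 at 35, Ighv1-14 at 36, Ighv1-9 at 41 and Ighv1-39 at 47. Among the 53 annotated genes, pairs shared a median of 85.0% of aligned bases, and 37 had another family member at 95% identity or more. Of all windows of 50 bases in an annotated Ighv1 transcript, a median of 66.2% occurred in no other gene's transcripts, against 81.1% for the 59 annotated heavy V genes outside the family. Under 50% of windows were unique in 11 of the 53, and in 5 of the 59 outside. The leading segments ranged widely: 99.3% of the windows of Ighv1-9 were unique, 92.7% of Ighv1-39, 68.7% of Ighv1-7 and 41.7% of Ighv1-84.

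The libraries are numbered 1 to 4, with total counts of 14087737, 13777954, 14629025 and 14307613. The germinal centre markers Bcl6, Fas, S1pr2, Mef2b and Gcsam and all 5 B lineage markers exceeded 3 counts in every library. Library 3 stood apart in sex-linked genes and in the sum of the plasma cell markers. It had 1307 counts of the Y-linked gene Ddx3y and 6 of Xist, against at most 3 and at least 8689 in the others, so it did not come from the same animal as they did. Its 6 plasma cell markers summed to 1210 CPM (counts scaled to the library total), against 2338 to 2482, and its heavy constant genes to 13140 CPM, against 22782 to 28752. Jchain made up most of the plasma cell sums, at 1811, 1634, 641 and 1595 CPM in libraries 1 to 4. Xbp1, Prdm1, Sdc1 and Mzb1 were also lowest in library 3. Irf4, on the same list, was lowest in library 1, at 203, 381, 322 and 340 CPM. The other libraries also differed in marker genes. Gcsam, a germinal centre gene, stood at 145, 40.4, 79.0 and 75.8 CPM and Bcl6, the germinal centre regulator, at 307, 154, 227 and 162 CPM, both highest in library 1 and lowest in library 2. Other germinal centre markers had other orders. S1pr2, at 223, 145, 163 and 135 CPM, was highest in library 1 and lowest in library 4. Fas (69.4, 69.2, 82.4 and 63.8 CPM) and Mef2b (308, 296, 348 and 316 CPM) differed less and were highest in library 3. The 5 naive B markers summed to 1583, 2826, 1866 and 2096 CPM, highest in library 2. The 5 T cell markers summed to 218, 102, 74.4 and 181 CPM and the 4 macrophage and monocyte markers to 112, 57.8, 66.6 and 69.2 CPM.

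Ighv1 supplied close to the share of heavy V RNA that its number of segments would give, but that share differed from library to library (the plot of heavy V counts by family). The family held 38.8%, 48.5%, 50.4% and 62.9% of the heavy V counts in libraries 1 to 4 (50.1% ± 9.89, SD, n = 4), and it held 53.1% of the heavy V rows and 47.3% of the annotated genes. Each share was measured on at least 13305 heavy V counts, and the exact (Clopper-Pearson) 95% intervals were 38.3 to 39.3%, 47.98 to 48.96%, 49.5 to 51.2% and 62.4 to 63.4%. The 4 intervals did not overlap, but they cover only the error of counting: reads were not tagged by molecule, so copies of 1 molecule cannot be told from separate ones. As a level, Ighv1 reached 1050, 1404, 458 and 1420 CPM, so that library 3 was lowest. The heavy V segments outside the family also were lowest in library 3, at 451 CPM, against 1653, 1492 and 838 CPM in libraries 1, 2 and 4. In library 3 the sums of plasma cell markers and of constant genes given above were lowest too. Their part in these totals was not tested. Among the constant genes, Ighg1, Ighg2b, Ighg2c and Ighg3 were lowest in library 3. Ighm and Ighd were instead lowest in library 4, Igha in library 2 and Ighe in library 1. Libraries 1, 2 and 4 did not share one order: Ighv1 was highest in library 4 and the other heavy V segments in library 1. The summed plasma cell markers of these libraries lay between 2338 and 2482 CPM.

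**Figure D1:**
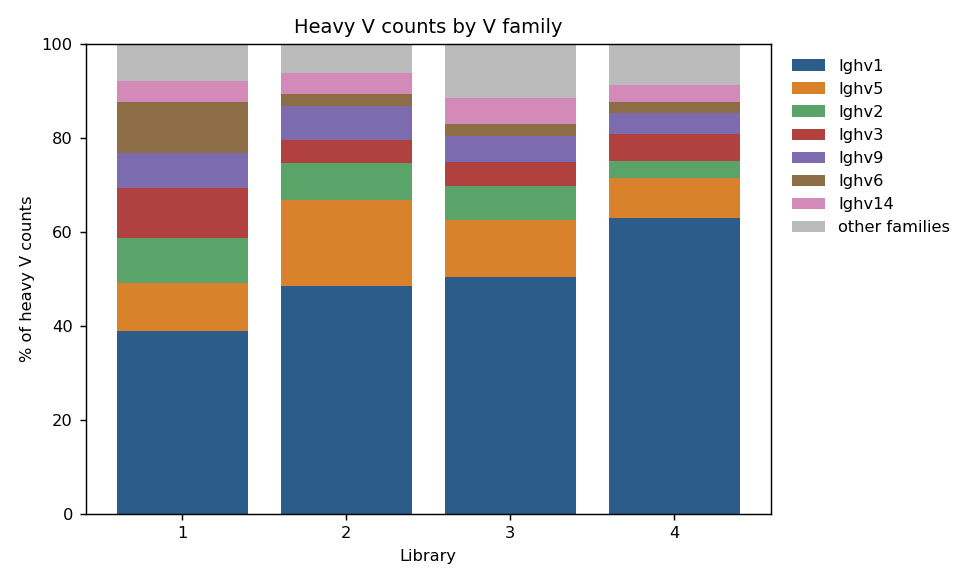
Share of heavy V counts (y axis, percent) held by each V family in libraries 1 to 4 (x axis), stacked, with the 7 families of highest mean share named. Ighv1 forms the lowest block, from 38.8% in library 1 to 62.9% in library 4.

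No other family came near its share of counts. Ighv5, the next, held 12.3% ± 4.32 with 13 rows, Ighv2 7.07% ± 2.51 with 10 and Ighv3 6.63% ± 2.74 with 8. Per segment and per length, the median annotated Ighv1 gene had 61.5, 84.5, 30.7 and 75.7 TPM (counts per length, scaled to the library), against 41.6, 62.0, 30.8 and 32.4 TPM for annotated heavy V genes outside the family. The medians were nearly equal in library 3. Taken family by family, the median annotated Ighv1 gene had a mean of 96.1 TPM over the libraries. That of Ighv14 (139 TPM, 4 genes), Ighv9 (112 TPM, 4 genes) and Ighv2 (97.1 TPM, 9 genes) was higher, and that of the remaining families lower. Over all annotated genes the medians in CPM averaged 10.5 for Ighv1 and 6.86 outside it. Among genes with at least 3 counts in every library they averaged 11.9 and 12.1, so that Ighv1 was no longer the higher.

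Most annotated genes of the family were transcribed in every library. Of the 53, 51, 53, 49 and 50 had at least 1 count in libraries 1 to 4, and 47 exceeded 3 counts in all of them. Ighv1-16, Ighv1-24 and Ighv1-62-3 did not exceed 3 counts in any library, where 3 counts correspond to 0.205 to 0.218 CPM. Use was uneven: the 10 leading segments held 56.3%, 50.9%, 52.5% and 64.2% of the Ighv1 counts, and 9, 10, 10 and 6 segments sufficed for 50%. By mean TPM the order began with Ighv1-39 (683 ± 1056), Ighv1-9 (523 ± 317), Ighv1-64 (315 ± 147), Ighv1-80 (308 ± 157) and Ighv1-26 (273 ± 124). In each neighbouring pair of this order at least 1 SD exceeded the gap between the means.

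**Figure D2:**
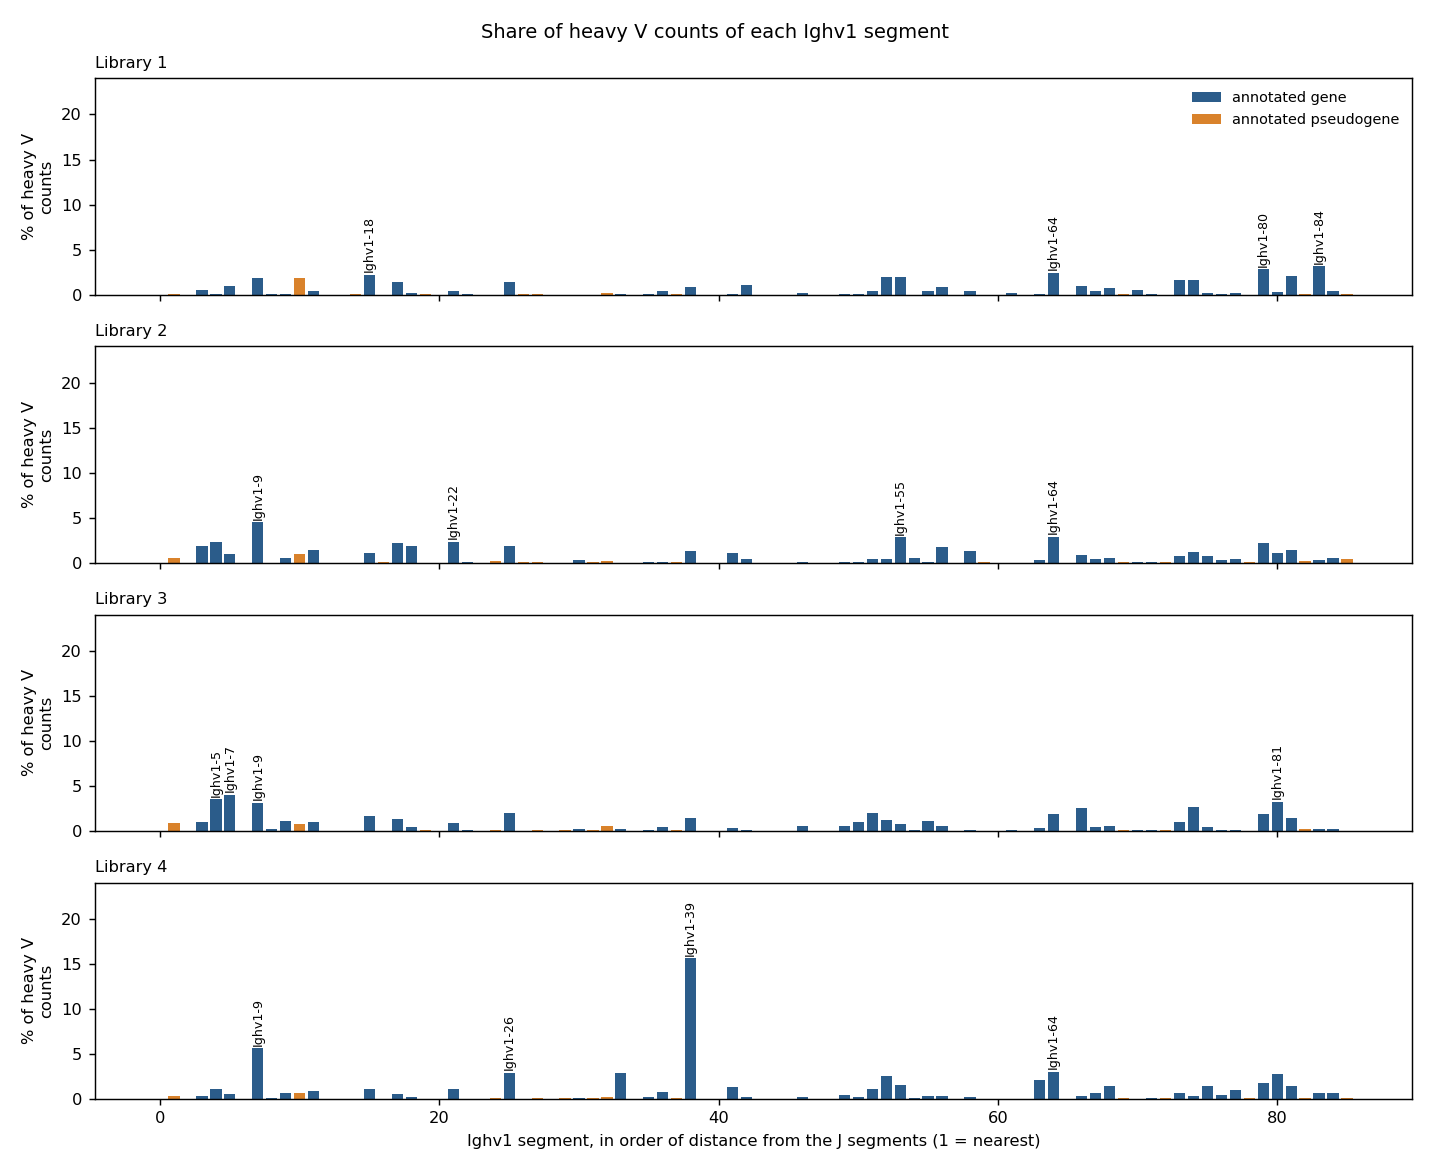
Share of heavy V counts (y axis, percent) of each of the 85 Ighv1 segments, 1 bar each, in order of distance from the J segments (x axis), for libraries 1 to 4; the 4 highest in each library are named. Ighv1-39 reaches 15.6% in library 4, and no bar of libraries 1 to 3 passes 4.48%.

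Within the family, a different segment led each library; segments outside Ighv1 were not ranked here. The Ighv1 counts of library 1 were led by Ighv1-84 with 1200 counts, 3.15% of heavy V counts (exact 95% interval 2.98 to 3.33%). Library 2 was led by Ighv1-9 with 1787 counts, 4.48% (4.28 to 4.69%), and library 3 by Ighv1-7 with 527 counts, 3.96% (3.64 to 4.31%). Library 4 was led by Ighv1-39 with 5035 counts, 15.6% (15.2 to 15.99%). The lead of library 4 was thus several times larger than the others, and it took 24.8% of that library's Ighv1 counts, against 8.11%, 9.24% and 7.86% for the leaders of libraries 1 to 3.

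Ighv1-39 stood at 23.1, 38.8, 12.7 and 352 CPM. In share of heavy V counts it was 0.854%, 1.34%, 1.40% and 15.6%, so that libraries 1 to 3 were alike beside library 4. The effective number of Ighv1 segments (1 over the summed squares of their shares, lower when few segments dominate) was 23.6, 26.6, 26.3 and 11.6, and library 4 was the most concentrated. Without Ighv1-39 it was 22.9, 25.6, 25.3 and 22.7, and library 4 lay beside library 1. The family's share in library 4 was 56.0% without it and remained the highest, with 38.3%, 47.8% and 49.7% in libraries 1 to 3.

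**Figure D3:**
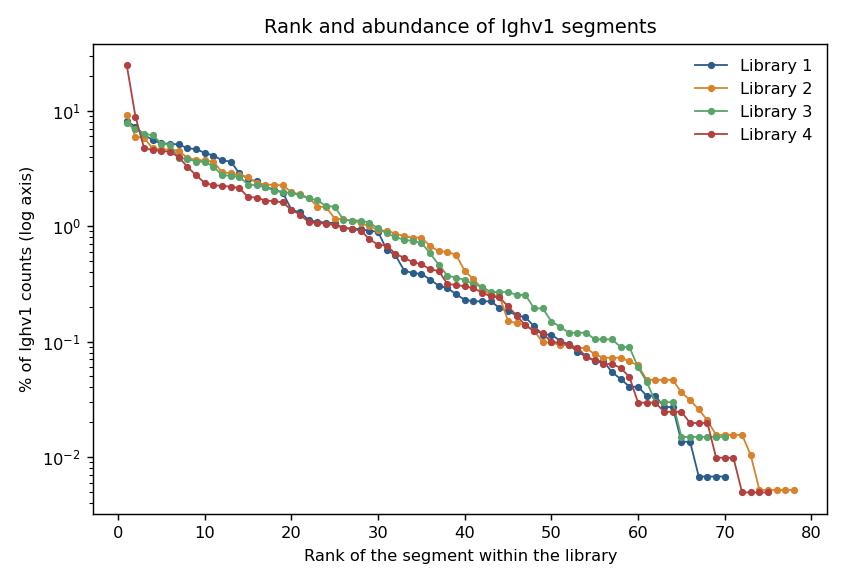
Share of Ighv1 counts (y axis, percent, log scale) against the rank of the segment within its library (x axis), 1 line per library, segments at 0 counts left out. The lines run together apart from rank 1, where library 4 stands at 24.8% and libraries 1 to 3 between 7.86% and 9.24%.

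Several other segments were prominent in 1 library. Over libraries 1 to 4, Ighv1-84 stood at 85.2, 8.49, 1.44 and 15.4 CPM, far higher in library 1 than elsewhere. Ighv1-34 had 38, 9 and 20 counts in libraries 1 to 3 and 911 in library 4, a range of 97.5-fold in CPM. Ighv1-20 was high in library 2 (54.8 CPM, against 4.33, 3.49 and 3.77) and Ighv1-63 in library 4 (46.4 CPM, against 1.92, 8.42 and 3.28). Ighv1-5 was low in library 1 alone, with 2.06, 65.0, 31.8 and 25.4 CPM in order. Ighv1-7 changed with the scale. It led library 3 by share (3.96%, against 0.998%, 0.912% and 0.576%). Its CPM there was 36.0, against 27.0, 26.4 and 13.0 in libraries 1, 2 and 4. Its highest value was 6.88 times its lowest in share and 2.77 times in CPM.

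Other named segments had other patterns, and some of them were high in a pair of libraries. Ighv1-9 stood at 48.8, 129.7, 28.0 and 126 CPM, high in libraries 2 and 4. Ighv1-42 stood at 3.05, 32.1, 2.67 and 30.3 CPM, with the same libraries high. Ighv1-54 was instead high in libraries 1 and 4, at 53.6, 11.2, 10.5 and 56.2 CPM. Ighv1-59 was highest in library 2 and next in library 1, at 21.8, 50.7, 5.13 and 6.01 CPM, and so was Ighv1-61, at 11.1, 37.2, 0.889 and 4.40 CPM. Ighv1-81 and Ighv1-75 had opposite extremes: Ighv1-81, at 9.37, 32.2, 29.1 and 62.7 CPM, was lowest in library 1 and highest in library 4, and Ighv1-75, at 45.3, 33.3, 23.9 and 6.92 CPM, was highest in library 1 and lowest in library 4. Ighv1-55, at 54.4, 81.8, 6.77 and 33.6 CPM, was lowest in library 3. Ighv1-26, at 38.1, 52.2, 17.6 and 65.0 CPM, and Ighv1-18, at 58.6, 31.6, 15.04 and 23.6 CPM, also had their lowest level in library 3, where Ighv1 as a whole was lowest.

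Another set had a narrow range of shares of heavy V counts. Ighv1-82 held 2.02%, 1.39%, 1.38% and 1.42%, with library 1 apart from the others, Ighv1-80 2.82%, 2.24%, 1.83% and 1.74%, and Ighv1-64 2.40%, 2.89%, 1.82% and 2.97%. Their highest share was 1.47, 1.63 and 1.63 times their lowest. Of the 57 segments with more than 3 counts in every library, 5 had a range under 2-fold (these with Ighv1-67 and Ighv1-72), 18 had a range of 10-fold or more, and the median was 6.58-fold. Ighv1-64, Ighv1-80 and Ighv1-9 were among the 10 leading Ighv1 segments of all 4 libraries, Ighv1-26 and Ighv1-55 of 3, 4 segments of 2 and 14 of 1 library.

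Correlations between libraries were higher over all segments than over the abundant ones. Across the 85 segments, Pearson's r of log2(CPM + 1) between pairs of libraries lay between 0.76 and 0.82 and Spearman's rho between 0.80 and 0.88. Across the 44 segments with at least 10 counts in every library, r lay between 0.37 and 0.51. These are descriptions across segments that share library and annotation. The 85 include 13 segments with at most 3 counts in every library, and the 44 span a narrower range of levels. A lower r over the 44 can follow from that alone, so it does not show that abundant segments are less alike. The shared part of the Ighv1 profile, the sum over segments of the smaller of both shares, was 49.3% for libraries 1 and 4, the lowest of 6 pairs, and 65.5% for libraries 2 and 3, the highest.

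Whether segments varied between libraries by more than other genes of their abundance was tested with edgeR's quasi-likelihood fit on all genes. The statistic is the quasi-dispersion of a gene over the trend at its abundance. Of the 85 members, 44 passed the filter, which requires about 10 counts in every library, and 40 of these were annotated genes. No Ighv1 segment passed at a Benjamini-Hochberg adjusted p under 0.05, and 1 of 11982 genes did (0.00835%). Without adjustment, 38 of the 44 segments had a p under 0.05, against 4.97% of all genes tested. Heavy V segments outside the family gave 35 of 42. The median statistic was 22.7 for Ighv1, 18.3 for the other heavy V segments and 0.895 for all tested genes; the difference between both V groups was not tested. The call depended on the method. The robust form of the fit called 17 of the 44 Ighv1 segments at an adjusted p under 0.05, against 0.526% of all genes, and 40 at an unadjusted p under 0.05, against 6.28%. It also called 10 of the 42 heavy V segments outside the family at an adjusted p under 0.05. DESeq2 marked 34 of the 44 Ighv1 segments as dispersion outliers, against 1.33% of all genes. Limma-voom called 0 and placed 39 at an unadjusted p under 0.05, against 5.03%. Without the filter on low counts, edgeR called 41 of 84 segments, against 0.844% of all genes. With the filter at a mean of 1 CPM it called 0 of 56, against 0.00802%.

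**Figure D4:**
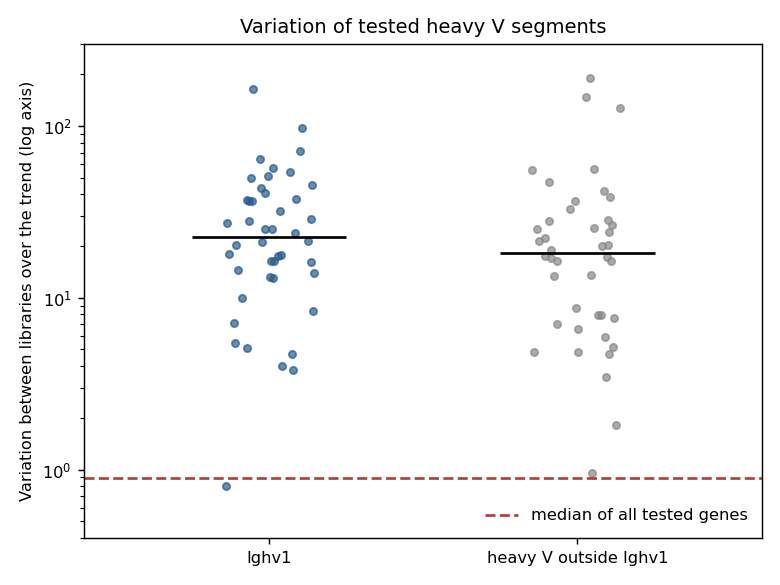
Variation between libraries as quasi-dispersion over the trend (y axis, log scale) for the 44 tested Ighv1 segments and the 42 tested heavy V segments outside the family, 1 point each, black lines at the medians of 22.7 and 18.3. The dashed line is the median of all tested genes, 0.895, and 1 Ighv1 segment, Ighv1-33, lies below it.

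The most variable member was Ighv1-39, at 164 times the trend (edgeR quasi-likelihood adjusted p = 0.0594, robust adjusted p = 0.00415; adjusted p between 0.0115 and 0.649 with 1 library left out, the highest without library 4). Ighv1-84 followed at 96.8 times the trend (adjusted p = 0.109, robust 0.00667). Ighv1-20, Ighv1-5, Ighv1-63 and Ighv1-61 lay between 54.2 and 71.5 times the trend, each with an adjusted p of 0.156, and Ighv1-55, Ighv1-42, Ighv1-59 and Ighv1-22 between 43.6 and 51.3. Without library 3, 5 segments passed the adjusted threshold: Ighv1-39 (adjusted p = 0.0115), Ighv1-5 (0.0238), Ighv1-20 (0.0244), Ighv1-84 (0.0398) and Ighv1-63 (0.043), against 0.155% of all genes in that fit, and 36 of 49 had an unadjusted p under 0.05, against 4.95%. Ighv1-34 was not among the 11982 genes tested, having 9 counts in library 2; among genes with a mean of at least 1 CPM it lay at 121 times the trend (adjusted p = 0.0588).

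Of the segments tested, 6 had an unadjusted p of 0.05 or more, and of these the 5 with the largest p were Ighv1-33, Ighv1-36, Ighv1-83, Ighv1-53 and Ighv1-52, at 0.799 to 5.08 times the trend. Ighv1-33 stood at 3.62, 5.73, 4.37 and 4.47 CPM. The sixth was Ighv1-47. The choice of scale mattered for the segments with a narrow range of share. On the CPM scale Ighv1-64, Ighv1-80 and Ighv1-82 lay at 28.0, 25.0 and 17.9 times the trend (unadjusted p = 0.00157, 0.00204 and 0.00434). With heavy V rows scaled to each library's heavy V total they lay at 2.98, 2.94 and 1.83 times (unadjusted p = 0.134, 0.136 and 0.257). These segments had been singled out for a narrow range of share. Low values on that scale therefore follow from the choice and are no separate evidence of steady use. Ighv1-39 stayed at 146 times the trend on that scale (adjusted p = 0.0674) and Ighv1-84 at 68.5 (adjusted p = 0.152), whereas Ighv1-53 went from 4.73 to 19.3 and Ighv1-52 from 5.08 to 21.9 times.

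Most pseudogenes of the family were low. They held 6.47%, 6.08%, 5.62% and 2.89% of Ighv1 counts, and the median pseudogene stood at 1.33, 3.59, 0.503 and 2.33 TPM. Of the 32, 10 did not exceed 3 counts in any library and 4 reached 10 counts in every library. Ighv1-14 alone had 700, 382, 100 and 192 counts, which was 73.1% of all Ighv1 pseudogene counts in library 1 and 32.5%, 26.5% and 32.7% in libraries 2 to 4. Its mean level of 133 ± 101 TPM ranked 18th among the 85 members by the same measure. In the transcript sequence, Ighv1-14 had no in-frame stop codon in the V part, as in 2 other pseudogenes (Ighv1-17-1 and Ighv1-30) and in all 53 annotated genes. It had no open frame running from a leader ATG, as 51 of the annotated genes had and among pseudogenes only Ighv1-30 (1, 6, 9 and 25 counts). Of its windows of 50 bases, 86.7% were unique. Ighv1-2, next among pseudogenes by mean CPM, had 10, 205, 117 and 108 counts and carried an in-frame stop. Ighv1-33, the third, carried 3.

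**Figure D5:**
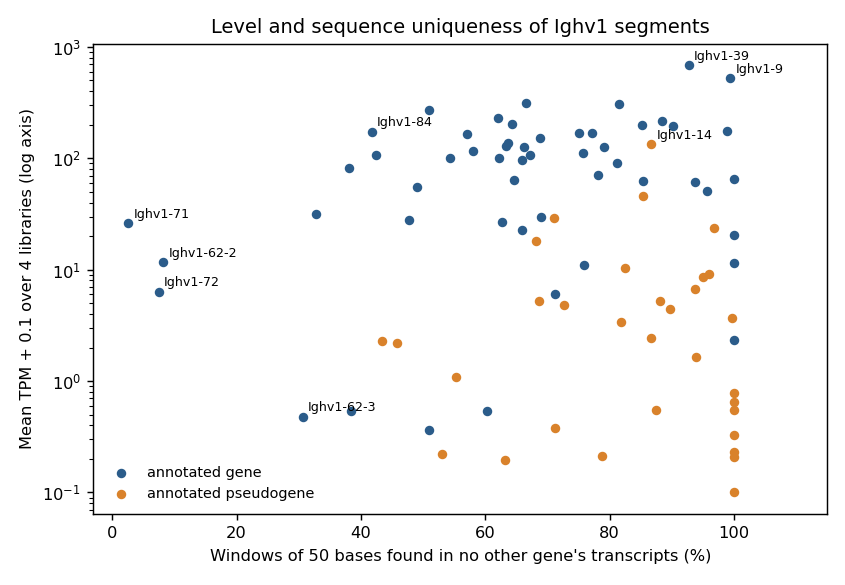
Mean TPM + 0.1 over the 4 libraries (y axis, log scale) against the percentage of 50-base windows found in no other gene's transcripts (x axis), 1 point per Ighv1 segment. Ighv1-71, Ighv1-62-2 and Ighv1-72 lie at the left, with under 10% of windows unique, and Ighv1-14 lies among the annotated genes.

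Some segments shared most of their sequence with another, and how this affected their counts was not tested. Ighv1-72 had 17, 19, 7 and 20 counts, and 7.49% of its windows were unique. Its nearest relative, Ighv1-62-3, differed at 2 bases and had 1, 3, 0 and 0 counts. How the authors counted reads that match both is not stated, so the count of Ighv1-72 is uncertain as a measure of its use. The V parts of Ighv1-62-2 and Ighv1-71 were identical, with 8.21% and 2.58% of the transcript windows unique. Ighv1-62-2 had 92, 9, 7 and 4 counts and Ighv1-71 205, 17, 13 and 5, so that both were highest in library 1 and lowest in library 4. This pair was chosen after its values were seen. By contrast Ighv1-20 and Ighv1-37, which differed at 4 bases, had unlike profiles: Ighv1-20 had 61, 755, 51 and 54 counts, and Ighv1-37 135, 48, 54 and 256. Ighv1-37 was also named after its values were seen. Over the 53 annotated genes Spearman's rho between unique windows and mean TPM was 0.25, a description across genes of the same libraries.

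Use by position in the locus differed between libraries. The 85 segments span 1541 kb of chromosome 12 (114469075 to 116010093, GRCm38), beginning 1039 kb from Ighj1, with 17 heavy V rows of other families between them. The 26 annotated genes nearest the J segments held 34.4%, 53.4%, 52.4% and 59.9% of the counts of annotated Ighv1 genes. Library 1 was the lowest and library 4 the highest. Without Ighv1-39, which is among the 26, the shares were 32.8%, 52.0%, 50.9% and 46.2%. Spearman's rho between order from the J segments and mean TPM was 0.02 over the 53 genes.

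Other genes of heavy chain joining and transcription were also read. Of 14 genes of V(D)J recombination, 11 were tested and 0 had an unadjusted p under 0.05 in edgeR's quasi-likelihood fit, where 4.97% of all genes did. At that rate 11 genes are too few to show whether the list differs from other genes. None of the 11 had a robust adjusted p under 0.05. The recombinase genes Rag1 (at most 2 counts) and Rag2 (0 counts in all 4 libraries, a limit of 0.205 to 0.218 CPM) did not exceed 3 counts, and Dntt, which adds untemplated bases at the joins, had a mean of 0.357 TPM. Pax5, the B cell identity factor needed for joining of distal V segments, stood at 318 ± 33.4 TPM. All 4 J segments and 5 of 8 constant genes had an unadjusted p under 0.05, against 4.97% of all genes tested. J segments summed to 428, 447, 148 and 348 CPM, lowest in library 3 as was Ighv1. Per 100 heavy constant counts there were 10.1, 10.1, 6.92 and 9.91 heavy V counts.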

How the data were processed

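RNA was measured in 4 libraries of 1 group by single-end reads of 50 nt from poly(A)-selected RNA. The submitters' processing notes name FastQC, STAR 2.5.2b, featureCounts 1.6.0 and the mm10 build. Not given in the sources used here are the annotation release, the strand setting and how reads that match several genes were counted. The values the authors deposited are raw whole-number counts per gene. Every count column was used.

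CPM, TPM (exon union of GENCODE M21, which matched 37536 of 37646 identifiers and all 85 members) and shares of heavy V counts were computed from the counts. GENCODE M21 has 7 further Ighv1 entries, not analysed here. The test of variation used R 4.3.3 and edgeR 4.0.16: genes were filtered by filterByExpr and scaled by TMM, glmQLFit was run with an intercept alone, and each quasi-dispersion over its trend was compared with an F distribution. Benjamini-Hochberg adjustment ran over all tested genes. The robust form used the prior degrees of freedom of the bulk of genes. DESeq2 1.42.0 and limma 3.58.1 served as alternatives, beside other normalisations, filters and denominators and fits without single segments or libraries. The code was also run on simulated counts with 200 changed genes, and the share of them recovered is not given here. Sequences were read from GENCODE M21 transcripts and aligned with Biopython 1.88. Recombination signals and promoter motifs were not analysed here.

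Segments named are the 5 highest per library, the 10 highest by mean CPM, the 10 smallest and 5 largest p, the 3 highest pseudogenes and a set of 5; others are examples of a counted class. Members and lists were chosen with earlier results of these data known. A gene of the germinal centre marker list is not reported here.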

Additional observations from a re-analysis of the deposited data

Results flagged for a closer look

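Of 37 quantities examined for a library far from the other 3 (8 summaries of the family and the shares of heavy V counts of 29 named segments), 10 stood out by Dixon's criterion, which flags about 1 in 20 groups by chance. Many of the segments had been named for a high value in a library. In library 4, Ighv1-39 held 15.6% of heavy V counts (0.854 to 1.40% in the others). Ighv1-34 held 2.82% there (0.0226 to 0.1503%) and Ighv1-63 held 2.06% (0.0709 to 0.361%). The leading segment of library 4 held 24.8% of Ighv1 counts (7.86 to 9.24%). That segment was Ighv1-39, so its flags rest on the same counts and are not separate observations. In library 3, Ighv1-7 held 3.96% (0.576 to 0.998%), Ighv1-52 held 0.977% (0.0867 to 0.183%), and there were 6.92 heavy V counts per 100 heavy constant counts (9.91 to 10.1). In library 1, Ighv1-82 held 2.02% (1.38 to 1.42%) and Ighv1-14 held 73.1% of Ighv1 pseudogene counts (26.5 to 32.7%). In library 2, Ighv1-20 held 1.89% (0.160 to 0.383%).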

How the results depend on the processing

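The count of Ighv1 segments at an adjusted p under 0.05 was 0 in the fit as reported. It was also 0 with DESeq2's size factors, scaled to the heavy V total, at a mean of 1 CPM and with limma-voom. With the robust fit it was 17 of 44, against 0.526% of all genes, and without a filter on low counts 41 of 84, against 0.844%. With 1 library left out it was 0 to 5, the 5 of 49 without library 3, against 0.155% of all genes. DESeq2 marked 34 of 44 as dispersion outliers, against 1.33%, by a rule that gives no adjusted p. The cause of these differences was not tested. At an unadjusted p under 0.05 the count was 38 of 44, against 4.97% of all genes. It was 45 of 56 at a mean of 1 CPM (4.97%) and 52 of 84 without the filter (4.73%). Under the other alternatives it was 36 to 40 of 44 to 49 segments. The Ighv1 share of heavy V counts (50.1%) lay between 45.9% and 53.9% with a library left out and between 47.95% and 50.6% otherwise. The effective number of segments (22.0) was 31.1 by Shannon entropy, which weights rare segments more. The mean r between libraries (0.79) was 0.85 with pseudocount 0.1 and 0.44 for segments with 10 counts in every library. Median CPM outside the family was 12.1 with at least 3 counts in every library, against 6.86. The pseudogene share of Ighv1 counts (5.27%) was 3.04% without Ighv1-14. Alternatives without Ighv1-39 or Ighv1-14, in TPM, and leaving libraries out of medians, correlations and the pseudogene share were chosen after seeing the data. No paired analysis was possible because there is 1 group. Library 3, with 6704 Ighv1 counts, limits segments of few counts most.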
